A study of Arabidopsis thaliana with 15 samples.

Results

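The genes that encode histones were followed across RNA-seq libraries of inflorescence meristem tissue of Arabidopsis thaliana (Ler background). Taken were 39 loci listed by their histone class, of 28775 genes in the count tables. The 24 replication-linked members are 8 H4, 5 H3.1, 4 H2A and 7 H2B genes. The 6 replacement members are 3 H3.3 and 3 H2A.Z genes. A further 6 encode other variants, namely the centromeric CenH3 (HTR12), 3 H2A.W and 2 H2A.X genes, and 3 encode the linker histone H1.

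There were 15 libraries in 6 groups, all from plants grown at 21 °C for 6 weeks. The microRNA line (n = 2) carried pAP1>>miR STM/BP, which expresses, where the AP1 promoter is active, a microRNA that targets the homeobox genes STM (SHOOT MERISTEMLESS) and BP (BREVIPEDICELLUS), in the ap1-1 mutant. It was compared with ap1-1 itself (n = 3). Plants with 35s::STM-GR, a fusion of STM to the glucocorticoid receptor under a broadly active promoter, were sprayed with 10 µM dexamethasone (DEX, which lets the fusion enter the nucleus) in 0.02% Silwet (n = 3) or with 0.02% Silwet alone, called mock (n = 3). Wild-type plants received the DEX spray (n = 2) or no treatment (n = 2). Sprayed plants were sampled after 5 h. No mock-sprayed wild type is among these samples, so in wild type the spray and DEX cannot be told apart. The ap1-1 and microRNA plants were untreated. Nothing in the labels says that replicates came from separate plantings, so p-values measure the spread between these samples.

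In a dividing plant cell, new nucleosomes are built behind the replication fork from H3.1, H4, H2A and H2B, whose genes are switched on together in S phase. H3.3 and H2A.Z are placed into chromatin outside replication, H3.3 mainly over transcribed genes and H2A.Z around gene starts. H2A.W marks heterochromatin, H2A.X serves DNA repair, CenH3 defines centromeres, and H1 binds the linker DNA between nucleosomes. In the shoot apex, where many cells divide, transcripts of the replication-linked genes are abundant and appear in a scattered pattern of S-phase cells.

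Between 18717248 and 26539358 reads were counted per library, and 21716 genes, among them all 39 members, passed the filter on low counts. Of the markers for the labelled tissue, WUS had 274 to 914 counts per library and STM 599 to 1345 in the libraries without the fusion, whereas CLV3 had 0 to 2 counts in every library. Summed levels of the marker lists were 222 to 1629 CPM (counts scaled to library size) for mature pollen, 323 to 509 CPM for tapetum and 9639 to 15402 CPM for photosynthetic tissue, so the samples held flowers and green tissue as well. In the 6 libraries of 35s::STM-GR, STM had 17503 to 23464 counts, which include the transgene and do not measure meristem tissue. STM was at 31.5 ± 0.528 CPM in the microRNA line and 47.9 ± 3.35 CPM in ap1-1 (SD, n = 2 and 3), with a log2 fold change of -0.60 ± 0.08 and an edgeR adjusted p of 1.49e-04. The other target, BP (KNAT1), was at 40.6 ± 1.13 CPM in the microRNA line and 53.6 ± 11.7 CPM in ap1-1, which overlapped, and was not called (-0.41 ± 0.14, edgeR adjusted p = 0.0701). A lower level in such tissue samples can come from fewer cells of a type or from less RNA per cell, and these cannot be told apart.

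Many members were intronless, and how closely copies resembled each other differed by class. None of the 20 H4, H3.1 and H2B genes had an intron in its coding region, whereas each of the other 19 members did (RefSeq models of TAIR10.1). Coding sequences were 78.85% to 98.08% identical among the 8 H4 genes and 80.29% to 89.54% identical among the 5 H3.1 genes, and between H3.1 and H3.3 genes 73.97% to 80.29%. Among the H1 genes identity was 44.06% to 55.02%. The stretch of coding bases 61 to 150 is shown for 2 H3.1 genes and 1 H3.3 gene, because reads are told apart between copies by such differences. All sequences here come from the Col-0 reference, whereas the plants were Ler, and differences between these strains were not examined. Capitals mark bases that differ from AT1G09200.
AT1G09200: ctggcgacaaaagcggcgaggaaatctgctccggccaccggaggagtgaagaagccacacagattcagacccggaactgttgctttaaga
AT5G10400: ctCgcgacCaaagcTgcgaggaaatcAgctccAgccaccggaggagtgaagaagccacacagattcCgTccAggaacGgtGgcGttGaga
AT4G40040: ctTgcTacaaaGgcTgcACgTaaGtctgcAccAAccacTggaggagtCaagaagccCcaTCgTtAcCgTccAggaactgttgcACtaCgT
AT5G10400 differed from AT1G09200 at 12 of these bases and AT4G40040 at 25. Words of 50 bases from the exons occurred once in the genome for 98.64% to 100% of positions in every H3.1 and H3.3 gene, and in 27 of the 39 members for 100%. The share was lowest in the H4 genes AT1G07660 (69.23%), AT3G46320 (72.1%), AT3G45930 (74.26%) and AT1G07820 (80.62%), so counts of these 4 are less certain. Annotated genes on the opposite strand overlap HTA13, HTA12, GAMMA-H2AX, HTA9, HTB9, AT1G06760 and AT2G30620, and SDH2-1 overlaps AT3G27360 on the same strand; whether reads were counted by strand is not given in the sources used here.

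Per kilobase of exon, and averaged over all libraries, the H3.3 genes were among the most abundant members. AT4G40040 (chromosome 4, 18557149 to 18558945) led with 334 CPM per kb, followed by its neighbour AT4G40030 (chromosome 4, 18555532 to 18557106) with 316 CPM per kb. HTB9 (H2B) followed at 310 CPM per kb, the remaining H3.3 gene AT5G10980 had 282 CPM per kb and AT1G06760 (H1) 244 CPM per kb. The highest members of the other classes were HTA9 for H2A.Z (214 CPM per kb), AT5G65360 for H3.1 (209), HTA6 for H2A.W (196), AT1G07820 for H4 (136), HTA10 for H2A (131) and H2AXA for H2A.X (100.3). CenH3 was lowest of all 39, with 7.41 CPM per kb.

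The classes differed in how far their levels moved between the groups. Summed CPM of the 24 replication-linked genes were 3228 and 2910.4 in the microRNA line, 2421, 2554 and 2854 in ap1-1, 1749, 1614 and 1719.8 in DEX-sprayed 35s::STM-GR, 2202, 1738 and 2024 in mock-sprayed 35s::STM-GR, 1808 and 1562 in DEX-sprayed wild type and 2444 and 2763 in unsprayed wild type. The microRNA libraries thus lay above every other library, ap1-1 and unsprayed wild type overlapped, and all 8 sprayed libraries lay below all 7 unsprayed ones. Among sprayed plants the 3 groups overlapped, with mock replicate 2 as low as the DEX libraries. Summed CPM of the 6 replacement genes were 1461 and 1267 in the microRNA line, 1106, 1308 and 1563 in ap1-1, 1487, 1491 and 1576 in DEX-sprayed 35s::STM-GR, 1465, 1437 and 1489 in mock-sprayed 35s::STM-GR, 1400.1 and 1406 in DEX-sprayed wild type and 1460.3 and 1462 in unsprayed wild type. For this sum the spread within ap1-1 was wider than the distance between any pair of group means.

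**Figure D1:**
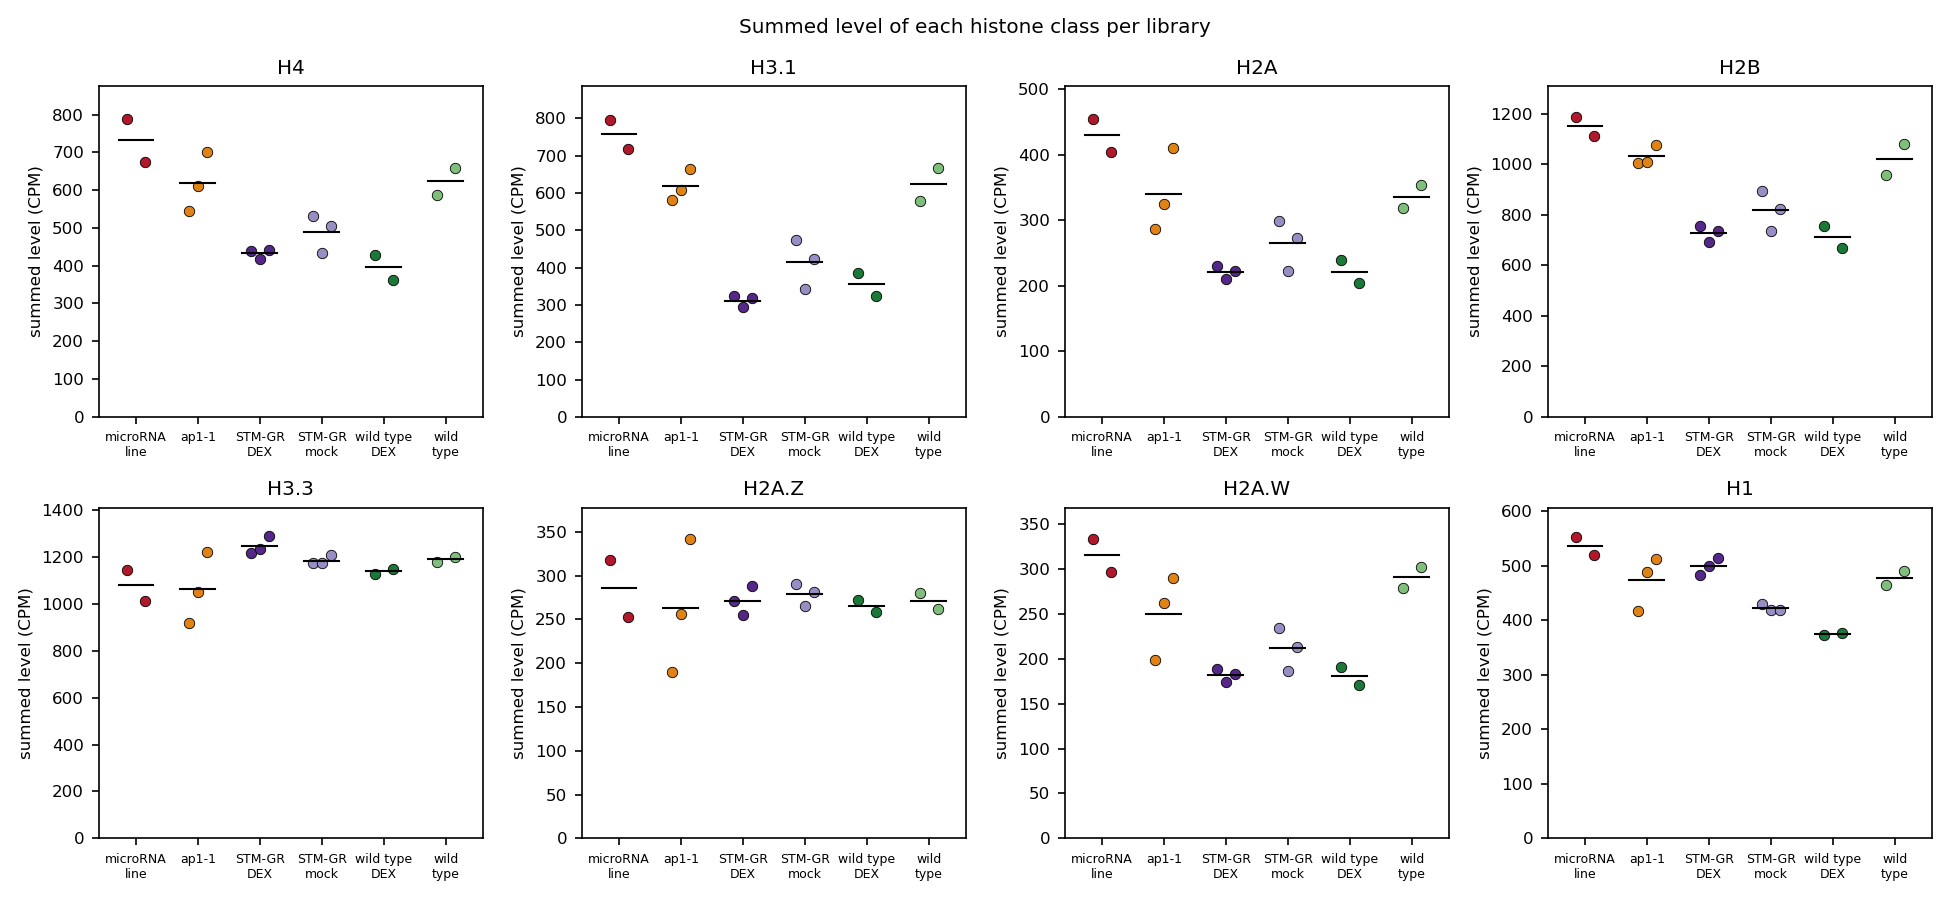
Summed level in CPM (y axis) of the genes of 8 histone classes in each of the 15 libraries, by group (x axis); points are libraries and lines are group means. In every sprayed library the H4, H3.1 and H2B sums lie below every unsprayed library, which is not so for H2A, H3.3 and H2A.Z. The H2A sum is 299 CPM in mock replicate 1 and 287 CPM in ap1-1 replicate 1.

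The ratio of H3.3 to H3.1 was taken per library from summed CPM, without correction for exon length. Per kilobase of exon, H3.3 genes summed to 876 and H3.1 genes to 1003 CPM per kb in the microRNA line. In unsprayed wild type these sums were 969 and 826 CPM per kb. The ratio therefore compares libraries and does not rank the classes by abundance. It was 1.44 and 1.41 in the microRNA line, 1.58, 1.73 and 1.84 in ap1-1, 3.76, 4.21 and 4.05 in DEX-sprayed 35s::STM-GR, 2.47, 3.42 and 2.85 in mock-sprayed 35s::STM-GR, 2.92 and 3.54 in DEX-sprayed wild type and 2.04 and 1.80 in unsprayed wild type. Every sprayed library had a higher ratio than every unsprayed library, and the 3 DEX-sprayed 35s::STM-GR libraries were the highest of all 15. The ratio of H2A.Z to H2A was 0.698 and 0.626 in the microRNA line, 0.662, 0.790 and 0.834 in ap1-1, 1.18, 1.22 and 1.29 in DEX-sprayed 35s::STM-GR, 0.971, 1.19 and 1.03 in mock-sprayed 35s::STM-GR, 1.14 and 1.26 in DEX-sprayed wild type and 0.878 and 0.740 in unsprayed wild type. It too was higher in each sprayed library than in each unsprayed one. HTA9 made up most of the H2A.Z sum, with 180 CPM averaged over all libraries, against 67.8 CPM for HTA11 and 24.4 CPM for HTA8. In DEX-sprayed against unsprayed wild type the estimates of HTA11 and HTA8 were negative and that of HTA9 positive, so the sum does not speak for each gene. These ratios are descriptions, and no test was run on them.

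**Figure D2:**
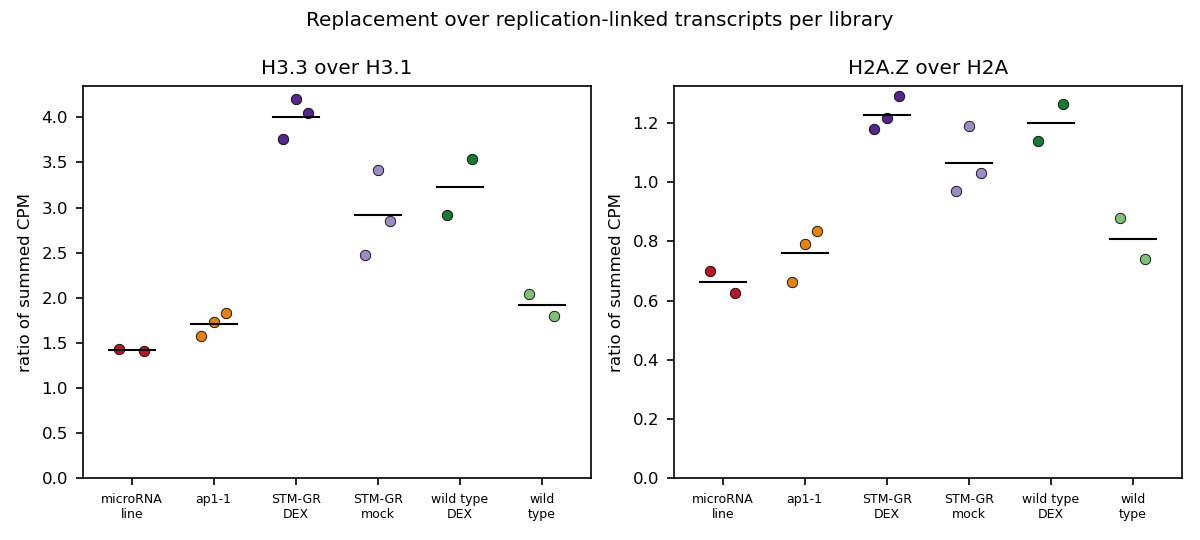
Ratio of summed CPM (y axis) of H3.3 to H3.1 genes and of H2A.Z to H2A genes in each library, by group (x axis); points are libraries and lines are group means. The H3.3 to H3.1 ratio averages 4.01 in DEX-sprayed 35s::STM-GR, 2.91 in mock-sprayed 35s::STM-GR, 3.23 in DEX-sprayed wild type and 1.92 in unsprayed wild type.

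DEX-sprayed wild type was compared with unsprayed wild type, both without the STM fusion. The comparison covers DEX, the spray and any other difference in handling or harvest time between the groups. These cannot be told apart. Of the 39 members 12 fell and none rose (edgeR quasi-likelihood test, adjusted p under 0.05 over all genes tested). Over all genes tested, 0.134% fell, which is 29 genes, and 0.484% rose, so histone members made up 41.4% of the genes that fell. The 24 replication-linked genes all had negative log2 fold changes, with a median of -0.69, against a median of 0.002 over all genes, and 11 of them fell. Of the 6 replacement genes none was called either way (median -0.12, 1 with an unadjusted p under 0.05; DESeq2 and limma-voom were also run, with 21 and 12 members called in all).

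Among the H4 genes, which encode 1 and the same core histone, HIS4 (chromosome 2, 12329345 to 12330059) had 64.4 and 54.2 CPM in DEX-sprayed and 94.1 and 105 CPM in unsprayed wild type (log2 fold change -0.75 ± 0.11, edgeR adjusted p = 0.00302). AT3G45930 had 24.4 and 21.7 CPM in DEX-sprayed and 36.8 and 42.2 CPM in unsprayed wild type (log2 fold change -0.78 ± 0.13, edgeR adjusted p = 0.00786). AT1G07820, the most abundant H4 gene, had 104 and 90.8 CPM in DEX-sprayed and 133 and 151 CPM in unsprayed wild type (log2 fold change -0.55 ± 0.10, edgeR adjusted p = 0.0214). In each of the 3 genes both sprayed libraries lay below both unsprayed ones. The other 5 H4 genes had log2 fold changes of -0.34 (AT1G07660) to -0.81 (AT3G46320) and were not called.

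Of the 5 H3.1 genes, 4 fell. AT5G10400 (chromosome 5, 3270172 to 3270957) had 92.1 and 76.3 CPM in DEX-sprayed and 143 and 166 CPM in unsprayed wild type (log2 fold change -0.87 ± 0.14, edgeR adjusted p = 0.00638). AT1G09200 had 108 and 93.7 CPM in DEX-sprayed and 168 and 196 CPM in unsprayed wild type (log2 fold change -0.85 ± 0.14, edgeR adjusted p = 0.00779). These are the H3.1 genes whose coding stretch is printed above. AT5G65360 had 117 and 95.7 CPM with DEX and 174 and 205 CPM without spray (log2 fold change -0.83 ± 0.16, edgeR adjusted p = 0.0271), and AT3G27360 had 29.8 and 23.5 CPM with DEX and 41.1 and 44.4 CPM without spray (log2 fold change -0.68 ± 0.12, edgeR adjusted p = 0.0137). The fifth, AT5G10390, which lies 577 bases from AT5G10400, had 40.1 and 35.4 CPM with DEX and 52.9 and 57.3 CPM without spray with no call (-0.55 ± 0.21, adjusted p = 0.387). Groups did not overlap in any of the 5.

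HTB2, an H2B gene (chromosome 5, 7651868 to 7652714), had 74.5 and 64.1 CPM in DEX-sprayed and 113 and 131 CPM in unsprayed wild type (log2 fold change -0.81 ± 0.13, edgeR adjusted p = 0.00806). HTB9, the most abundant H2B gene per kilobase of exon, had 182 and 178 CPM with DEX and 238 and 260.2 CPM without spray (log2 fold change -0.47 ± 0.081, edgeR adjusted p = 0.0122). HTB1 also fell (-0.61 ± 0.13, adjusted p = 0.0396), and the other 4 H2B genes had log2 fold changes of -0.33 to -0.70 without a call. Of the H2A genes, HTA13 had 52.6 and 42.5 CPM with DEX and 77.7 and 85.6 CPM without spray (log2 fold change -0.78 ± 0.16, edgeR adjusted p = 0.0357). HTA10, HTA2 and RAT5, named for its role in Agrobacterium transformation, were not called (-0.72 ± 0.17, -0.48 ± 0.16 and -0.27 ± 0.19).

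A gene outside the replication-linked classes fell as well. HTA6, which encodes a heterochromatic H2A.W, had 119.8 and 101 CPM in DEX-sprayed and 190.2 and 200.5 CPM in unsprayed wild type (log2 fold change -0.82 ± 0.17, edgeR adjusted p = 0.0357). The other H2A.W genes HTA7 (-0.49 ± 0.13) and HTA12 (-0.23 ± 0.14), the H2A.X genes GAMMA-H2AX (-0.39 ± 0.18) and H2AXA (-0.44 ± 0.11), and CenH3 (-0.43 ± 0.16) were not called. The linker gene HIS1-3 had 9.03 and 14.1 CPM in DEX-sprayed and 6.02 and 5.74 CPM in unsprayed wild type, without overlap, and was not called (0.98 ± 0.39, unadjusted p = 0.0227, adjusted p = 0.402).

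None of the 3 H3.3 genes was called in this comparison. AT4G40040 had 482 and 494 CPM in DEX-sprayed and 495 and 496 CPM in unsprayed wild type, a log2 difference of -0.024 ± 0.094 with a 95% interval of -0.21 to 0.16. The intervals were -0.30 to 0.21 for AT4G40030 and -0.42 to 0.056 for AT5G10980, whereas that of AT5G10400 (H3.1) was -1.14 to -0.60. Among the H2A.Z genes, HTA9, the most abundant, had 191 and 191 CPM with DEX and 179.6 and 156 CPM without spray (0.19 ± 0.21). HTA8 (-0.35 ± 0.20) and HTA11 (-0.53 ± 0.17, unadjusted p = 0.00816, adjusted p = 0.276) had negative estimates and were not called either.

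These calls rest on few libraries. No member was called without DEX-sprayed wild type replicate 2 or without unsprayed wild type replicate 2, and 7 were called without DEX-sprayed replicate 1. The fit of these 2 groups alone called 3. Of the 15 DNA replication genes none was called (4 at an unadjusted p under 0.05, median -0.22), nor was any of the 12 mitotic genes (6 at an unadjusted p under 0.05, median -0.24). Markers of photosynthetic tissue summed to 10479.6 and 10208 CPM in DEX-sprayed and 11785 and 11975 CPM in unsprayed wild type. Mature pollen markers summed to 1453 and 1367 CPM in DEX-sprayed and 1326 and 846 CPM in unsprayed wild type, and meiosis markers to 27.3 and 27.2 CPM in DEX-sprayed and 30.4 and 32.4 CPM in unsprayed wild type. None of these 3 sums overlapped between the groups, whereas those of tapetum and inflorescence meristem markers did. The part of tissue make-up in these results was not tested.

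**Figure D3:**
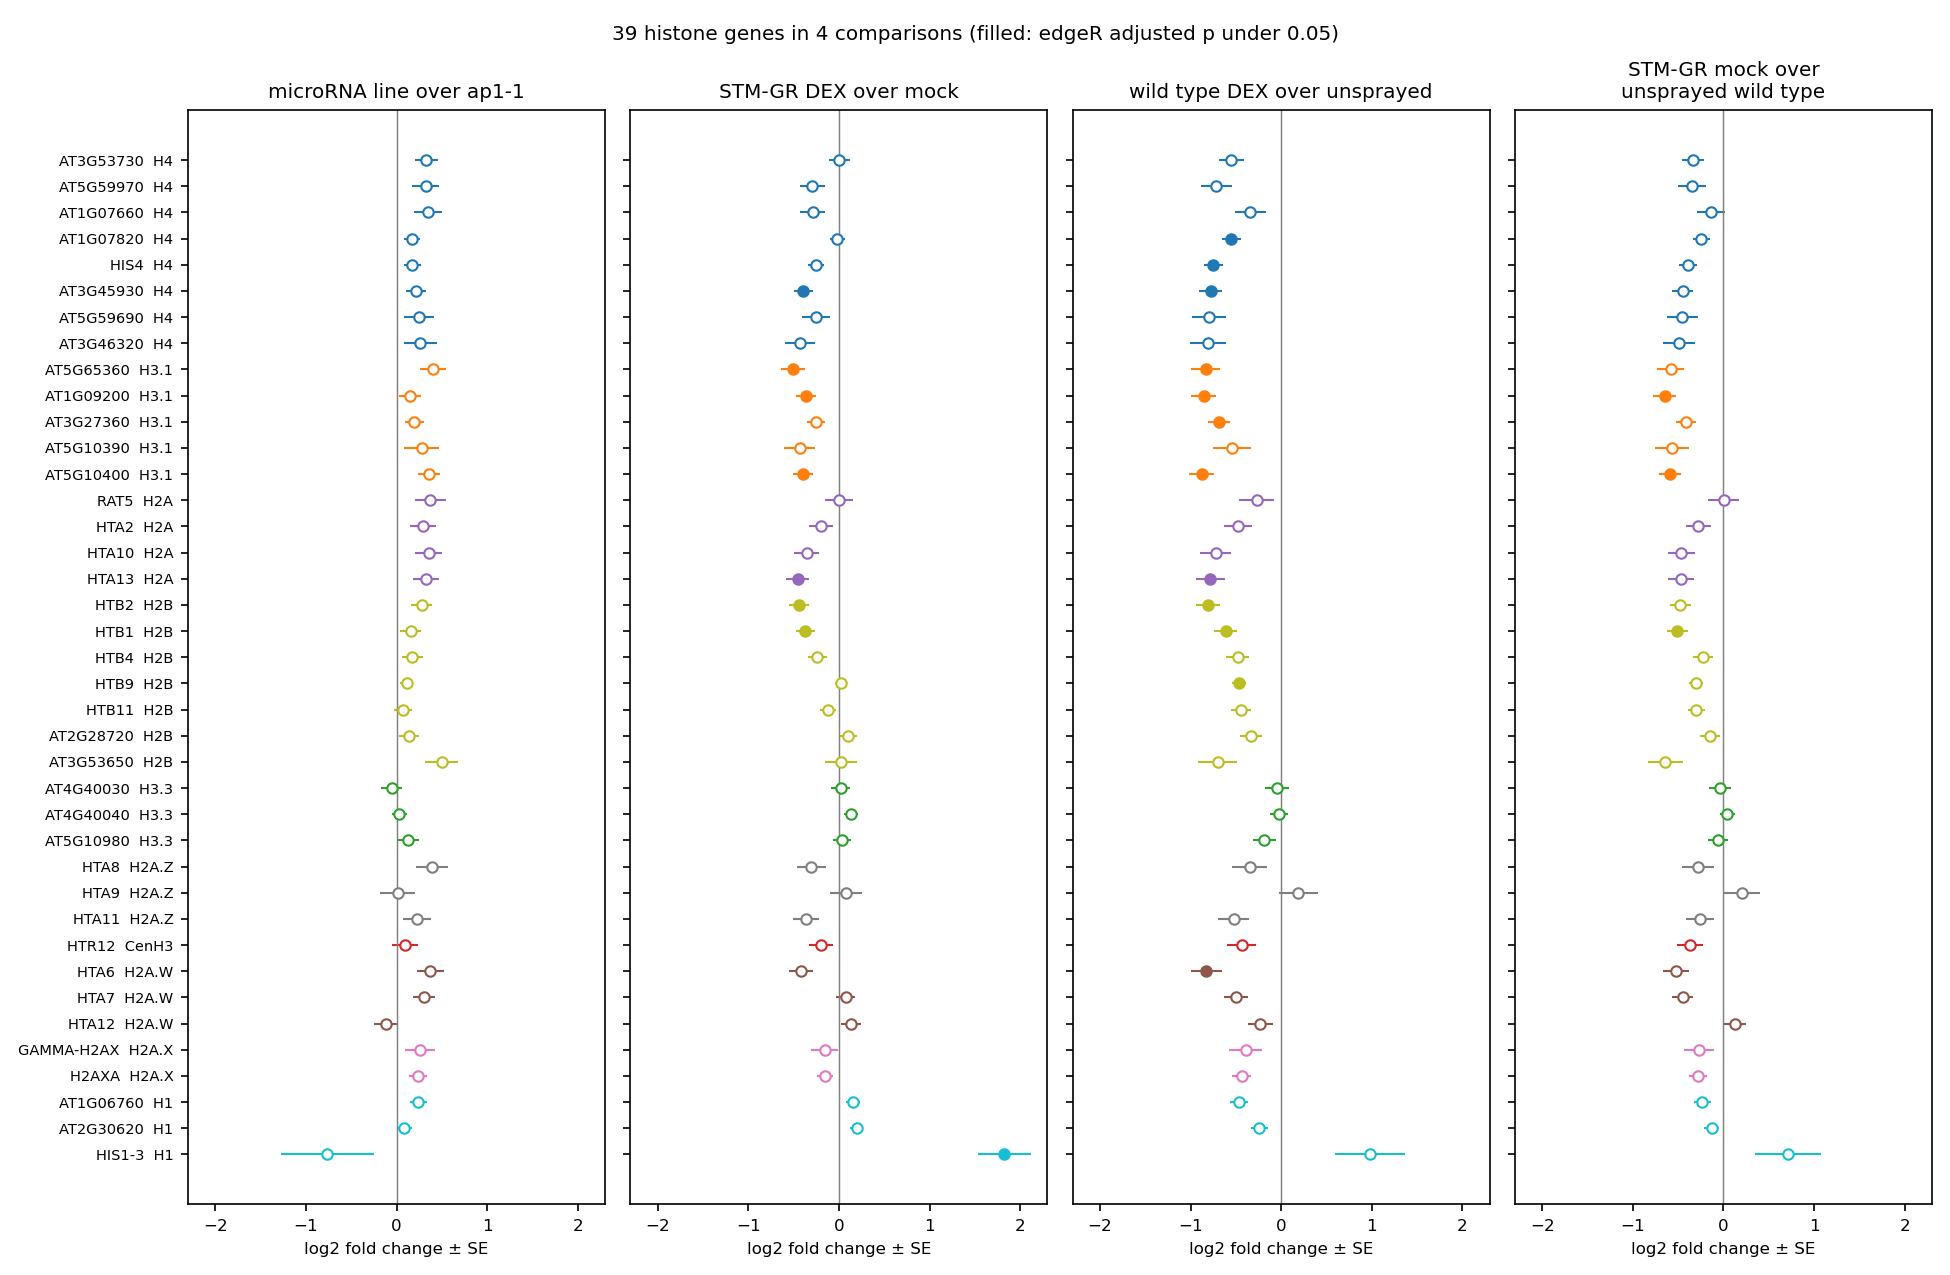
Log2 fold change ± SE (x axis) of the 39 histone genes (y axis, with their class, coloured by class) in 4 comparisons; filled points have an edgeR adjusted p under 0.05. In DEX-sprayed against unsprayed wild type all 24 replication-linked genes lie below 0 and 11 are filled, while the 3 H3.3 genes lie near 0; HIS1-3 stands alone at 1.83 on DEX in 35s::STM-GR.

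Mock-sprayed 35s::STM-GR was also set against unsprayed wild type, a comparison added after the data were seen, in which genotype and spray differ together. It shares the unsprayed wild-type libraries with the previous comparison. Here 3 members fell and none rose, where 1.69% of all genes were called, 0.949% higher and 0.741% lower. AT1G09200 had 135, 96.5 and 117 CPM in mock-sprayed 35s::STM-GR and 168 and 196 CPM in unsprayed wild type (log2 fold change -0.65 ± 0.12, edgeR adjusted p = 0.0143). AT5G10400 had 118, 84.5 and 105 CPM in mock-sprayed 35s::STM-GR and 143 and 166 CPM in unsprayed wild type (log2 fold change -0.59 ± 0.12, edgeR adjusted p = 0.0239). The H2B gene HTB1 had 102, 79.2 and 95.6 CPM in mock-sprayed 35s::STM-GR and 120.1 and 143 CPM in unsprayed wild type (log2 fold change -0.51 ± 0.11, edgeR adjusted p = 0.0357). Groups did not overlap in these 3 genes, and mock replicate 2 was the lowest library in each. Of the 24 replication-linked genes 23 had negative log2 fold changes (median -0.43), the exception being RAT5 (0.003), while the replacement genes had a median of -0.048. No member was called without mock replicate 2 or without wild-type replicate 2, and 6 were called without wild-type replicate 1 or without mock replicate 1.

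DEX was compared with mock in 35s::STM-GR, where both groups were sprayed; the groups differ in DEX itself as well as in active STM, and these cannot be told apart in this comparison alone. The linker histone gene HIS1-3 rose, and 7 replication-linked members fell, out of 39. Over all genes tested 5.56% rose and 7.15% fell. All 5 H3.1 genes had negative log2 fold changes (-0.25 to -0.50) and 3 fell, whereas the 3 H3.3 genes were at 0.021 to 0.13 and none was called. The H2A.Z genes HTA11 (-0.36 ± 0.14) and HTA8 (-0.30 ± 0.16) lay below mock in every DEX library. HTA9 overlapped (0.077 ± 0.175), and no H2A.Z gene was called.

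HIS1-3 (chromosome 2, 7845923 to 7847031), a short H1 variant known in Arabidopsis to be induced by drought and shade, had 20.9, 33.7 and 48.1 CPM in DEX-sprayed and 6.50, 13.4 and 9.23 CPM in mock-sprayed 35s::STM-GR (log2 fold change 1.83 ± 0.29, edgeR adjusted p = 8.82e-04). The 3 DEX libraries were all above the 3 mock libraries, with a wide spread among themselves. The call held in all 14 alternatives, with adjusted p of 4.51e-05 to 0.00749. The estimate in DEX-sprayed against unsprayed wild type was also positive, and the difference between both responses was not called (0.85 ± 0.48, 95% interval -0.10 to 1.79, edgeR adjusted p = 0.639). The rise is therefore not shown to depend on the fusion by that test. The main H1 genes AT1G06760 (0.16 ± 0.082) and AT2G30620 (0.20 ± 0.073, adjusted p = 0.0991) were not called.

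Of those that fell, HTB2 (H2B) had the lowest adjusted p, with 70.7, 58.3 and 64.2 CPM in DEX-sprayed and 100.5, 74.5 and 87.3 CPM in mock-sprayed 35s::STM-GR (log2 fold change -0.44 ± 0.11, edgeR adjusted p = 0.0147). AT5G65360 (H3.1) had 91.4, 81.7 and 93.8 CPM with DEX and 145, 103 and 129.9 CPM with mock (log2 fold change -0.50 ± 0.13, edgeR adjusted p = 0.0204). AT3G45930 (H4) had 23.6, 19.7 and 22.7 CPM with DEX and 32.1, 27.0 and 27.4 CPM with mock (log2 fold change -0.39 ± 0.10, edgeR adjusted p = 0.0224). In these 3 genes the DEX libraries were all below the mock libraries, by a small margin against mock replicate 2. HTB1 (H2B) had 72.9, 66.6 and 74.6 CPM with DEX and 102, 79.2 and 95.6 CPM with mock (log2 fold change -0.37 ± 0.10, edgeR adjusted p = 0.0288). HTA13 (H2A) had 45.7, 38.7 and 45.0 CPM with DEX and 68.1, 48.4 and 60.5 CPM with mock (log2 fold change -0.45 ± 0.13, edgeR adjusted p = 0.0324). The H3.1 genes AT5G10400, with 83.0, 76.0 and 75.4 CPM with DEX and 118, 84.5 and 105 CPM with mock, and AT1G09200, with 93.0, 82.4 and 95.4 CPM with DEX and 135, 96.5 and 117 CPM with mock, completed the 7 (-0.39 ± 0.11, edgeR adjusted p = 0.0329, and -0.36 ± 0.11, edgeR adjusted p = 0.0466). These groups did not overlap either.

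Mock replicate 2 stood apart from the other mock libraries over the S-phase genes as a whole. Its replication-linked sum was 1738 CPM, against 2202 and 2024 in mock replicates 1 and 3, and its DNA replication list summed to 614 CPM, against 773 and 721. Without that library 13 members fell, and without mock replicate 1 or DEX replicate 2 none fell, while HIS1-3 rose in each of these fits. Of 15 DNA replication genes 1 fell with DEX, where 7.15% of all genes fell. It was RNR1, a subunit of ribonucleotide reductase (-0.31 ± 0.09, edgeR adjusted p = 0.0446), and the list median was -0.18. None of 12 mitotic genes was called, with 4 at an unadjusted p under 0.05.

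The DEX response of 35s::STM-GR was set against the difference between DEX-sprayed and unsprayed wild type in 1 interaction test. The difference was positive for 38 of 39 members, and for 10810 of the 21716 genes tested. Of the members 2 were called, where 1.93% of all genes were called, 0.944% positive and 0.985% negative. HTB9 had 208, 195 and 212 CPM with DEX and 215, 189.6 and 201 CPM with mock in 35s::STM-GR, so its log2 fold change there was 0.024 ± 0.066 against -0.47 ± 0.081 in wild type (difference 0.49 ± 0.10, edgeR adjusted p = 0.0236). AT1G06760 had 283, 279.9 and 288 CPM with DEX and 267, 244 and 253 CPM with mock in 35s::STM-GR, and in wild type 221 and 213 CPM with DEX and 283 and 315 CPM unsprayed (difference 0.62 ± 0.13, edgeR adjusted p = 0.0217). In both genes sprayed and unsprayed wild type did not overlap, and within 35s::STM-GR the DEX and mock libraries overlapped for HTB9 and not for AT1G06760. Annotated genes on the opposite strand overlap both HTB9 and AT1G06760, and whether reads were counted by strand is not given. The baseline of the first response was mock-sprayed and that of the second unsprayed, so the difference covers the spray as well as the genotype. No member was called without unsprayed wild-type replicate 2, either DEX-sprayed wild-type library, DEX replicates 1 or 3 of 35s::STM-GR, or its mock replicates 2 or 3.

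Under DEX, 35s::STM-GR and wild type can be compared with both groups sprayed alike. The groups differ in genotype as well as in active STM. Here 4 members rose and none fell, where 4.92% of all genes rose and 5.92% fell. The 3 linker H1 genes were among the 4. HIS1-3 had 20.9, 33.7 and 48.1 CPM in DEX-sprayed 35s::STM-GR and 9.03 and 14.1 CPM in DEX-sprayed wild type (log2 fold change 1.56 ± 0.33, edgeR adjusted p = 0.00773). AT1G06760 had 283, 279.9 and 288 CPM in DEX-sprayed 35s::STM-GR and 221 and 213 CPM in DEX-sprayed wild type (log2 fold change 0.39 ± 0.092, edgeR adjusted p = 0.0146). AT2G30620 had 179, 187 and 178 CPM in DEX-sprayed 35s::STM-GR and 143 and 150.2 CPM in DEX-sprayed wild type (log2 fold change 0.31 ± 0.083, edgeR adjusted p = 0.0273). No library of 35s::STM-GR overlapped with wild type in any of the 3. HTA12 (H2A.W) was the other, with 19.3, 17.9 and 19.9 CPM in DEX-sprayed 35s::STM-GR and 12.9 and 14.2 CPM in DEX-sprayed wild type (log2 fold change 0.49 ± 0.12, edgeR adjusted p = 0.0198). Mock-sprayed 35s::STM-GR also lay above both DEX-sprayed wild-type libraries in AT1G06760 (267, 244 and 253 CPM), AT2G30620 (156, 161 and 158 CPM) and HTA12 (19.1, 15.4 and 17.5 CPM). None of these 3 was called with DEX against mock. In HIS1-3 the mock libraries (6.50, 13.4 and 9.23 CPM) overlapped with DEX-sprayed wild type. AT1G06760, AT2G30620 and HTA12 are each overlapped by an annotated gene on the opposite strand, and whether reads were counted by strand is not given. The 24 replication-linked genes had a median of 0.009 and none was called (5 at an unadjusted p under 0.05). The DNA replication list lay lower, with 15 of 15 estimates negative, a median of -0.29 and 10 genes at an unadjusted p under 0.05. Of these, PCNA1, the sliding clamp of DNA polymerase (-0.63 ± 0.18, edgeR adjusted p = 0.0332), and RNR1 (-0.34 ± 0.10, edgeR adjusted p = 0.0487) fell, as did E2F3 among the 6 E2F and RBR genes (-0.43 ± 0.13, edgeR adjusted p = 0.0454). The DNA replication list summed to 632, 603 and 594 CPM in DEX-sprayed 35s::STM-GR and 802 and 705 CPM in DEX-sprayed wild type, without overlap. No histone member was called without wild-type DEX replicate 1, 1 was called without wild-type DEX replicate 2, and 2 were called without DEX-sprayed 35s::STM-GR replicate 1 or 3.

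**Figure D4:**
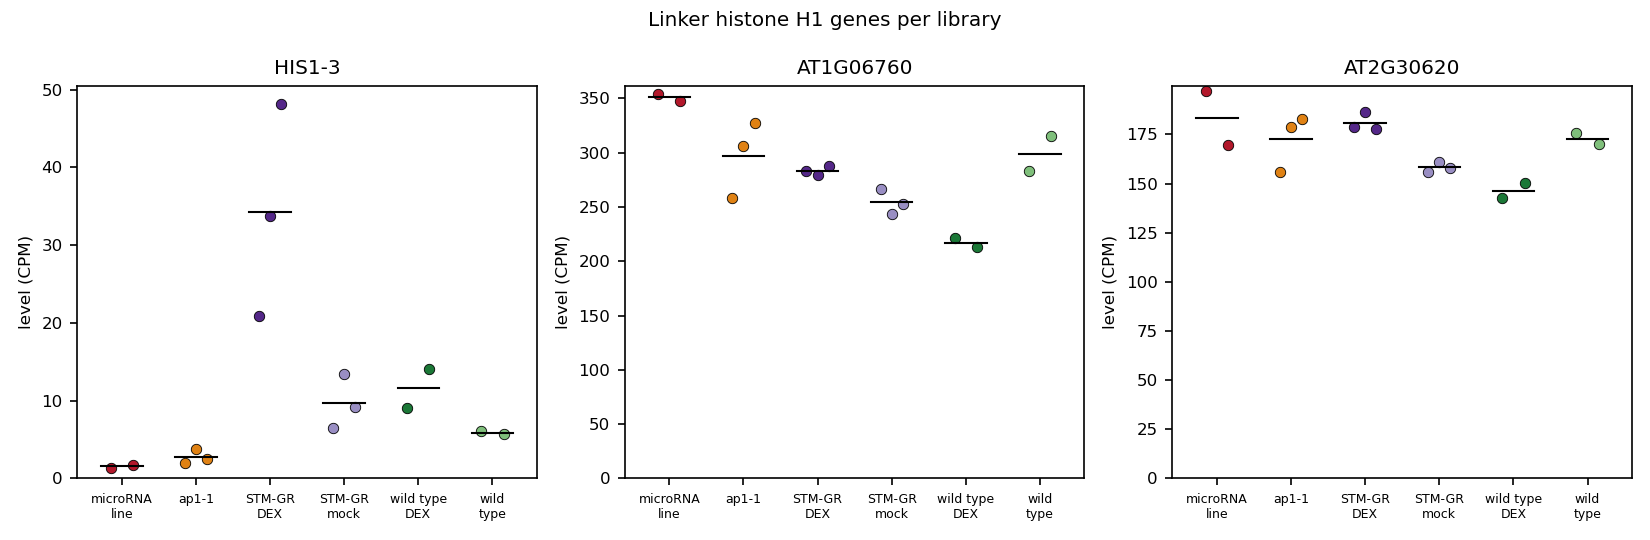
Level in CPM (y axis) of the 3 linker histone H1 genes in each library, by group (x axis); points are libraries and lines are group means. HIS1-3 lies between 20.9 and 48.1 CPM in the DEX-sprayed 35s::STM-GR libraries and at 14.1 CPM or less in the other 12; AT1G06760 and AT2G30620 are lowest in DEX-sprayed wild type.

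The microRNA line was compared with ap1-1; of its targets STM was lower there and BP was not called. No member was called by edgeR, although 13 had an unadjusted p under 0.05; DESeq2 called 2 and limma-voom 1, each higher. Over all genes 16.3% were called, 4.87% higher and 11.4% lower. The 24 replication-linked genes all had positive log2 fold changes, from 0.072 to 0.50 with a median of 0.27, against -0.001 over all genes tested. AT5G65360 (H3.1) had 257 and 227 CPM in the microRNA line and 155, 190.1 and 205 CPM in ap1-1, which did not overlap (log2 fold change 0.40 ± 0.14, edgeR adjusted p = 0.0724). HTA10 (H2A) had 179.8 and 165 CPM in the microRNA line and 111, 128 and 165 CPM in ap1-1, which touched at replicate 3 of ap1-1 (log2 fold change 0.35 ± 0.15, edgeR adjusted p = 0.133). The replacement genes had a median of 0.082 and HIS1-3 was at 1.38 and 1.74 CPM in the microRNA line and 1.95, 3.76 and 2.48 CPM in ap1-1 (-0.77 ± 0.51). Replicate 3 of ap1-1 was the highest ap1-1 library in most classes, and without it 13 members were called higher in the microRNA line.

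Of 12 mitotic genes 5 rose in the microRNA line over ap1-1, among them CYCB1;1, a mitotic B-type cyclin (0.39 ± 0.11, edgeR adjusted p = 0.0220), CDC20.1, an activator of the anaphase-promoting complex (0.37 ± 0.09, edgeR adjusted p = 0.00828), and SYP111, a syntaxin of the cell plate also called KNOLLE (0.31 ± 0.08, edgeR adjusted p = 0.0149). None of 15 DNA replication genes was called by edgeR (8 at an unadjusted p under 0.05, median 0.29). Their summed level was 1129 and 1160.1 CPM in the microRNA line, against 975, 954 and 932 CPM in ap1-1. Markers of mature pollen summed to 222 and 227 CPM in the microRNA line and 1003, 772 and 892 CPM in ap1-1, and their part in the result was not tested.

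Against unsprayed wild type, which it shares with other comparisons here, the microRNA line had 3 members higher and 2 lower, where 12.1% of all genes were higher and 16.8% lower; the shares of members are below that background. CenH3 (HTR12, chromosome 1, 143489 to 146479) had 18.6 and 18.9 CPM in the microRNA line and 12.6 and 14.9 CPM in wild type (log2 fold change 0.45 ± 0.16, edgeR adjusted p = 0.0445). HTA13 (H2A) had 120.5 and 106 CPM in the microRNA line and 77.7 and 85.6 CPM in wild type (log2 fold change 0.47 ± 0.15, edgeR adjusted p = 0.0347). AT3G53650 (H2B) had 15.60 and 14.97 CPM in the microRNA line and 9.59 and 10.6 CPM in wild type (log2 fold change 0.60 ± 0.20, edgeR adjusted p = 0.0392). These were the 3 that rose, each without overlap of the groups. HTA12 (H2A.W) had 12.1 and 11.8 CPM in the microRNA line and 15.1 and 16.8 CPM in wild type (log2 fold change -0.41 ± 0.14, edgeR adjusted p = 0.0356). HIS1-3 had 1.38 and 1.74 CPM in the microRNA line and 6.02 and 5.74 CPM in wild type (log2 fold change -1.90 ± 0.50, edgeR adjusted p = 0.01002). Both fell without overlap. No member was called without either microRNA library, and at most 2 were called without a wild-type library.

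Of the 12 mitotic genes 11 were higher in that comparison (median 0.56), and 7 of 15 DNA replication genes were higher (median 0.34), among them MCM2 (0.49 ± 0.13, edgeR adjusted p = 0.0104) and MCM5 (0.48 ± 0.12, edgeR adjusted p = 0.00650), subunits of the replicative helicase. The median of the replication-linked histone genes was 0.25.

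Between ap1-1 and unsprayed wild type no member was called by edgeR (7 at an unadjusted p under 0.05), by DESeq2 or by limma-voom; 5.42% of all genes rose and 5.19% fell. The replication-linked median was 0.023, with 15 genes positive and 9 negative. CenH3 had 17.9, 17.0 and 17.7 CPM in ap1-1 and 12.6 and 14.9 CPM in wild type (log2 fold change 0.35 ± 0.14, edgeR adjusted p = 0.135), and HIS1-3 had 1.95, 3.76 and 2.48 CPM in ap1-1 and 6.02 and 5.74 CPM in wild type (log2 fold change -1.14 ± 0.40, edgeR adjusted p = 0.0859). Neither overlapped between the groups. In the same comparison 5 of 12 mitotic genes rose. Without ap1-1 replicate 3, 6 members were called lower.

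Counting members whose libraries did not overlap gives the same comparisons without a test. In DEX-sprayed against unsprayed wild type 37 of 39 members lay below in every library and 2 above, where 22.9% of all genes lay below and 22.9% above. In mock-sprayed 35s::STM-GR against unsprayed wild type 29 lay below (19.1% of all genes) and 3 above (18%). With DEX against mock in 35s::STM-GR 14 lay below (20.9%) and 4 above (19.9%). The microRNA line had 16 members above ap1-1 (17.2%) and 1 below (21.7%). Against unsprayed wild type the microRNA line had 24 members above (34.8%) and 4 below (32.7%), and ap1-1 had 1 above (17.1%) and 3 below (15.2%). Under DEX, 12 members of 35s::STM-GR lay above wild type (25.1%) and 4 below (25.3%).

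Tested over the 6 groups together, 33 of the 39 members differed (edgeR adjusted p under 0.05), and 54.9% of all genes tested did. The 6 that were not called were the 3 H3.3 genes, RAT5 (H2A), GAMMA-H2AX (H2A.X) and HTA9 (H2A.Z). AT4G40040 (H3.3) had 519 and 444 CPM in the microRNA line, 436, 463 and 513 in ap1-1, 547, 560.0 and 575 in DEX-sprayed and 508, 505 and 520.4 in mock-sprayed 35s::STM-GR, 482 and 494 in DEX-sprayed and 495 and 496 in unsprayed wild type. H2AXA (H2A.X) had 149 and 135 CPM in the microRNA line, 109, 124 and 128 in ap1-1, 94.4, 87.4 and 94.0 in DEX-sprayed and 112, 91.8 and 102 in mock-sprayed 35s::STM-GR, 96.0 and 87.6 in DEX-sprayed and 116 and 132 in unsprayed wild type. H2AXA was lowest in the sprayed groups on average, whereas AT4G40040 was highest in DEX-sprayed 35s::STM-GR.

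The proteins that place histones were followed by a list of 20 chaperones and exchange factors. None was called in DEX-sprayed against unsprayed wild type (1 at an unadjusted p under 0.05, median -0.031) or in the microRNA line against ap1-1 (2 at an unadjusted p under 0.05, median 0.083). With DEX in 35s::STM-GR, the nucleosome assembly proteins NAP1;3 (-0.28 ± 0.07, edgeR adjusted p = 0.0187) and NRP1 (-0.27 ± 0.07, edgeR adjusted p = 0.0215) fell, where 7.15% of all genes fell. No member of the list rose, where 5.56% of all genes rose. In the microRNA line against wild type 4 of the 20 rose and none fell, where 12.1% of all genes rose and 16.8% fell. The 4 included FAS1, the large subunit of the CAF-1 complex that delivers H3.1 (0.41 ± 0.12, edgeR adjusted p = 0.0189), and HIRA, which delivers H3.3 (0.31 ± 0.11, edgeR adjusted p = 0.0473). Of 6 E2F and RBR genes, the regulators of S-phase transcription, none was called in the comparisons of DEX with mock or with unsprayed wild type.

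Upstream sequences were searched because many replication-linked genes moved together. In the 300 bases before each annotated gene start, both strands were searched for the octamer CGCGGATC and the hexamer ACGTCA, elements known from plant histone promoters, for the E2F forms TTTCCCGC, TTTGGCGC, TTTGCCGC and TTTCGCGC, and for the telo box AAACCCTA. The octamer was found in 10 of 39 members, in 0.149% of 27443 protein-coding genes, the hexamer in 10 members and 8.72% of genes, an E2F form in 4 members and 1.57% of genes, and the telo box in 0 members and 5.21% of genes. Matches of different kinds never overlapped in the members. Not every gene that fell in sprayed wild type held a match. HIS4, which had the lowest edgeR adjusted p of the members there, and AT1G07820, also called, held none. Windows of 6 members are shown, with matches in capitals: some of the genes that fell in sprayed wild type, an H3.3 gene that was not called, and HIS1-3 (RefSeq, TAIR10.1). They are Col-0 sequences, whereas the plants were Ler.
AT3G45930 (chr3:16883016-16883315, plus strand): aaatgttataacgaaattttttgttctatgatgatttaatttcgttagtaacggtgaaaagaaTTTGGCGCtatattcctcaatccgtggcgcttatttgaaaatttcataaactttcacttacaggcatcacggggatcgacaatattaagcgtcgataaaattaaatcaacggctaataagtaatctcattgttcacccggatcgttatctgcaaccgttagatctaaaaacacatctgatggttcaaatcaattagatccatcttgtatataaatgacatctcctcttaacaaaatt
AT1G09200 (chr1:2972335-2972634, minus strand): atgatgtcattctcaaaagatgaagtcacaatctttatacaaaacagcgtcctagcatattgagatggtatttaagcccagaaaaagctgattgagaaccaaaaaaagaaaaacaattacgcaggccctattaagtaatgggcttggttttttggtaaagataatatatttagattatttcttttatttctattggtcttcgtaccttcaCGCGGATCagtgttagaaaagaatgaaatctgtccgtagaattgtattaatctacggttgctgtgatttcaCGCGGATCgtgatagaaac
AT5G10400 (chr5:3270958-3271257, minus strand): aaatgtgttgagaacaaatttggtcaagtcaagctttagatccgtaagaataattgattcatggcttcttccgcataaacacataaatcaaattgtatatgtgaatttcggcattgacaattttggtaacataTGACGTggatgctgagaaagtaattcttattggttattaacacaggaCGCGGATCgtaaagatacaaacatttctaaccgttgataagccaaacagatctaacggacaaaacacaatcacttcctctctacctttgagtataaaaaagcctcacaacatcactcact
HTB2 (chr5:7652715-7653014, minus strand): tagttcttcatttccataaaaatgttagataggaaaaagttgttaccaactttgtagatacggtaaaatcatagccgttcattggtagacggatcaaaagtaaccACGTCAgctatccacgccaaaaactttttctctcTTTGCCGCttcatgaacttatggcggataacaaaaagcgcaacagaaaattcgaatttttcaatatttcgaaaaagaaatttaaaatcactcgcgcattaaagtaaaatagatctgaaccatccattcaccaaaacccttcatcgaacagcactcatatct
AT4G40040 (chr4:18558946-18559245, minus strand): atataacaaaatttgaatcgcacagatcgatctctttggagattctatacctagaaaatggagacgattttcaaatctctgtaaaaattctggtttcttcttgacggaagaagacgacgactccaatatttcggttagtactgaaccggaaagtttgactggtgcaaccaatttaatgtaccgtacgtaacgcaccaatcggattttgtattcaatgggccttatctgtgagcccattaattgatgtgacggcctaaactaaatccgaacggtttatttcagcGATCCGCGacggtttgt
HIS1-3 (chr2:7845623-7845922, plus strand): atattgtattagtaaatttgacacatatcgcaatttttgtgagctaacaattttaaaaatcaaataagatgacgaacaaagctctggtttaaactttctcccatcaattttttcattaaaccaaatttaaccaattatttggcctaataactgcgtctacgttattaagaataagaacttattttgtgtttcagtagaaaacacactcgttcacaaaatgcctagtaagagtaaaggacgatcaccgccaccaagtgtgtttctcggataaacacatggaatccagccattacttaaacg
The H4 gene AT3G45930 held an E2F form at 237 bases before the start, the H3.1 gene AT1G09200 the octamer at 90 and again at 19, AT5G10400 the hexamer on the minus strand at 167 and the octamer at 120, and HTB2 the hexamer at 195 and an E2F form at 161. AT4G40040, which was not called in any comparison, held the octamer on the minus strand at 17, and HIS1-3 held none of the letters searched.

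By class, the hexamer was in 6 of 7 H2B genes and in 2 of 5 H3.1 genes, and the octamer in 3 of 5 H3.1, 2 of 4 H2A and 2 of 8 H4 genes but in 0 of 7 H2B genes. HTA6, the H2A.W gene that fell in sprayed wild type, held the octamer at 116 bases before its start. The octamer was in 7 of 24 replication-linked and 1 of 6 replacement genes, and the hexamer in 8 of 24 and 2 of 6. Both motifs were thus found in each kind, and with 6 replacement genes a difference in shares was not tested. An E2F form was in 4 of 24 replication-linked and 0 of 6 replacement genes. Of the 3 H3.3 genes 1 held the octamer and 1 the hexamer. The window of AT4G40030, which starts 42 bases from AT4G40040 on the same strand, lies mostly within that gene. A match is a description of these letters and not of a bound site.

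**Figure D5:**
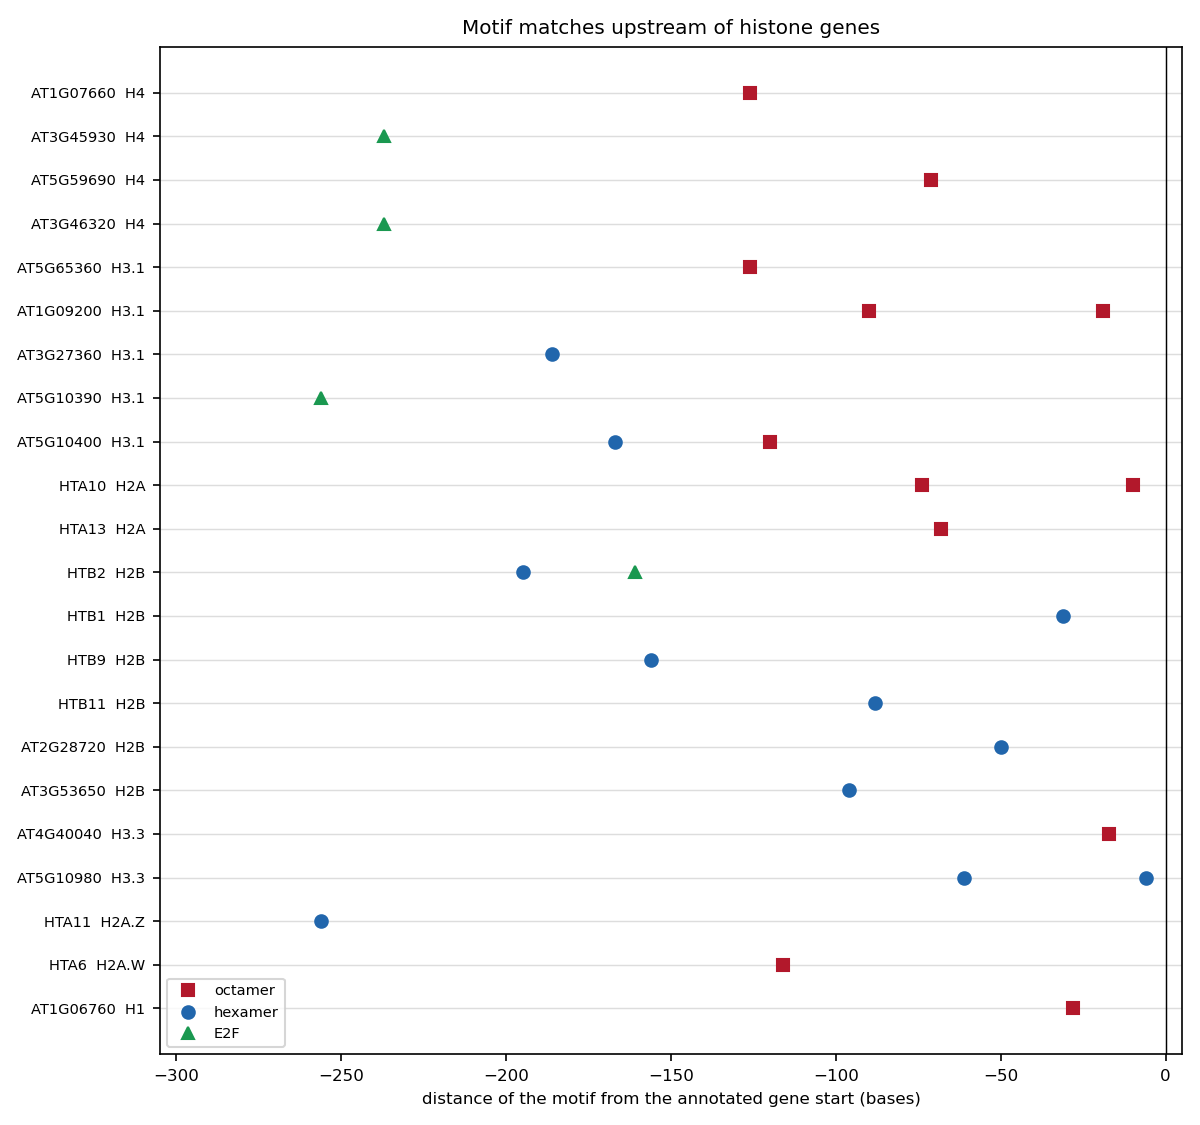
Start of each motif match (x axis, bases before the annotated gene start at 0) in the 22 histone genes with at least 1 match (y axis, with their class); squares are octamers, circles hexamers and triangles E2F forms. Every octamer lies within 126 bases of the start, and 6 of 7 H2B genes carry a hexamer and none an octamer.

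Several members lie near others on the chromosomes. The H3.3 genes AT4G40030 and AT4G40040 are 42 bases apart and both stayed uncalled in every comparison. The H2B gene AT2G28720 and the H4 gene HIS4 are 1536 bases apart on chromosome 2, with log2 fold changes of -0.33 ± 0.12 and -0.75 ± 0.11 in DEX-sprayed against unsprayed wild type, of which HIS4 was called. HTA6 (H2A.W) and HTB4 (H2B) are 10656 bases apart on chromosome 5, at -0.82 ± 0.17 and -0.48 ± 0.12, of which HTA6 was called.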

How the data were processed

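The 15 libraries were deposited as tables of whole-number counts per gene, which the authors made with TopHat2 2.0.6, HTSeq 0.62 and the TAIR10 genome, per the submitters' processing notes, which also name DESeq2. A further deposited table of the authors holds a normalized signal, equal to each count divided by a factor per library; it was checked and not tested. Rows naming no gene (5 per library, 5.493% to 6.634% of reads) were left out. Genes with low counts were removed (filterByExpr, minimum count 10), and 1 model of all 15 libraries was fitted with edgeR 4.0.16 in R 4.3.3 (TMM scaling, quasi-likelihood test, Benjamini-Hochberg adjustment over 21716 genes, adjusted p under 0.05). Fold changes are edgeR estimates, and CPM values are TMM-scaled. The script was tested on simulated data. DESeq2 1.42.0 and limma 3.58.1 were alternatives. RefSeq gene models of TAIR10.1 matched 39 of 39 members. Named with values were up to 10 called members per comparison and the most abundant member of each class; further members were chosen after their values were seen. Members and gene lists were chosen with earlier results of these data known, and the comparison of mock-sprayed 35s::STM-GR with wild type was added after the data were seen. Intervals cover the fitted spread between libraries. They were taken from the SE and a normal curve, so they are somewhat narrower than the quasi-likelihood test implies. Labels of the DEX-sprayed wild type disagree on replicate numbers. The design text of the series names a different ap1 allele than the sample labels, whose ap1-1 was used here.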

Additional observations from a re-analysis of the deposited data

Results flagged for a closer look

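The difference between the DEX response of 35s::STM-GR and that of wild type, an interaction term in the edgeR fit, passed the threshold in 2 histone genes. For HTB9 (H2B) it was 0.491 on the log2 scale (adjusted p = 0.0236), and the call held in 11 of 18 alternatives, with adjusted p of 3.07e-04 to 0.137. For AT1G06760 (H1) it was 0.618 (adjusted p = 0.0217), and the call held in 10 of 18 alternatives, with adjusted p of 5.17e-04 to 0.129. The wild-type baseline was unsprayed and that of 35s::STM-GR was mock-sprayed. Both genes are overlapped by annotated genes on the opposite strand, and whether reads were counted by strand is not given.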

How the results depend on the processing

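Of the calls on single members, that of HIS1-3 on DEX in 35s::STM-GR held in every alternative, and no called member reversed. With library totals in place of scaling factors, members called were 1 for the microRNA line against ap1-1 and 10 for it against wild type, and the replacement genes of wild type summed to 1436 CPM, or 1464 CPM with RLE size factors, against 1461 CPM. Without the filter, mock-sprayed 35s::STM-GR against wild type had 7. DESeq2 called 2 in the microRNA line against ap1-1, 21 in DEX-sprayed against unsprayed wild type, 4 for the difference between DEX responses and 11 in mock-sprayed 35s::STM-GR against wild type; limma-voom called 1 in the microRNA line against ap1-1. With sample quality weights these were 1 for the microRNA line against ap1-1, 21 for DEX against mock, 19 for DEX-sprayed wild type, 7 for the difference, 11 for the microRNA line against wild type, 10 for 35s::STM-GR against wild type under DEX and 7 for mock against wild type. Fitting only the groups compared gave 19 for DEX against mock, 3 for DEX-sprayed wild type, 7 for the difference, 9 for the microRNA line against wild type, 11 under DEX and 0 for mock against wild type. The cause was not tested. Leaving out each library gave 0 to 13 calls for the microRNA line against ap1-1, 1 to 14 for DEX against mock, 0 to 12 for DEX-sprayed wild type, 0 to 3 for the difference, 0 to 6 for ap1-1 against wild type, 0 to 2 for the microRNA line against wild type, 0 to 3 under DEX and 0 to 6 for mock against wild type. Replicate numbers did not pair the libraries (correlations of -0.133 to 0.207 in 33 same-numbered pairs, 2 over 0.1); with the replicate block the calls were 1 for the microRNA line against ap1-1, 8 for DEX against mock, 14 for DEX-sprayed wild type, 2 for the difference, 1 for ap1-1 against wild type, 5 for the microRNA line against wild type, 3 under DEX and 5 for mock against wild type. Libraries of the same group differed most in ap1-1 (mean chi-square per gene of 18.0 to 33.4) and in unsprayed wild type (14.5). In the other groups these values were 3.17 to 7.96. The fit of all 15 libraries shares its estimate of spread between the groups. Groups of 2 or 3 libraries limit every comparison.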

Other observations

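Of 9 further histone loci outside the 39, 6 passed the filter. MGH3, an H3 gene of the male germline, had 1.27 ± 0.0849 CPM in the microRNA line and 6.11 ± 0.438 CPM in ap1-1 (SD, n = 2 and 3), a log2 fold change of -2.27 ± 0.23 (edgeR adjusted p = 1.68e-05). All 3 mature pollen markers fell in the same comparison, with log2 fold changes of -1.76 for VGD1, -4.08 for VGDH1 and -2.31 for PPME1. The part of pollen content in the MGH3 value was not tested. AT2G37470, an H2B gene, had 50.1 ± 7.86 CPM in DEX-sprayed and 81.2 ± 3.99 CPM in unsprayed wild type (SD, n = 2 each), with a log2 difference of -0.70 (adjusted p = 0.0357 by edgeR). The loci AT1G75600, AT5G12910 and HTA4 had at most 12, 1 and 5 counts in any library and were not tested.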
